A study of Mus musculus with 8 samples.

Results

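Activator protein 1 (AP-1) is a family of dimeric transcription factors. The genes described here encode 7 of its subunits, Fos, Fosb, Fosl2, Jun, Junb, Jund and Atf3. They were chosen by gene symbol, each symbol matched 1 gene, and the files hold 54232 genes in all. Their levels come from droplet-based single-nucleus RNA sequencing (10x Chromium, 3′ ends of transcripts) of perilesional forebrain, taken as a cube of 2 mm and frozen, from 10-week-old male mice of the Swiss Webster stock. Surgery defined 4 groups, called control, BCAS, TBI (for traumatic brain injury) and BCAS+TBI, in which the 2 surgeries were combined. BCAS stands in the labels as an abbreviation, which the study's title ties to cerebral hypoperfusion. The time from surgery to dissection, and what the control surgery consisted of, are not given in the sources used here. Each group has 2 libraries that the labels call biological replicates, here numbered as in the labels, so p-values measure the spread between these libraries. The question the title raises is whether hypoperfusion worsens TBI.

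AP-1 binds DNA as a pair of basic leucine zipper proteins. Jun proteins pair with each other or with Fos proteins, while Fos proteins need a partner of the Jun family. Fos, Fosb and Junb are immediate early genes: in neurons, synaptic activity and calcium entry switch them on within minutes through transcription factors already in place, among them CREB and the serum response factor, and their mRNAs decay fast. Jun and Atf3 are best known in nervous tissue as genes of the injury and stress response, Jun through the Jun N-terminal kinases and Atf3 as a marker of axotomized neurons. Jund is expressed more steadily in many cell types.

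The promoters are shown first because they are where those pathways meet each gene. All 7 genes matched an entry of the RefSeq promoter table of build GRCm38.p6. The 5 sequences below are the 120 bases just before the annotated start in those genes where a searched motif was found there, printed 5′ to 3′ on the strand of the gene, with the matched motif in capitals.
Fos, chr12:85473770-85473889 (+): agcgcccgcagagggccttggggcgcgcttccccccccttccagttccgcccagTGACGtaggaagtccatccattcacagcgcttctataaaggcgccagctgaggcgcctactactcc
Fosb, chr7:19310046-19310165 (−): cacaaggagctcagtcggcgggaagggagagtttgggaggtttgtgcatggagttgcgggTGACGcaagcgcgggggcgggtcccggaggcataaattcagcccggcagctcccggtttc
Junb, chr8:84978749-84978868 (−): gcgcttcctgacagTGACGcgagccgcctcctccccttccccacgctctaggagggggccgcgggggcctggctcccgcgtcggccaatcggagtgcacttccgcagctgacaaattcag
Atf3, chr1:191183334-191183453 (−): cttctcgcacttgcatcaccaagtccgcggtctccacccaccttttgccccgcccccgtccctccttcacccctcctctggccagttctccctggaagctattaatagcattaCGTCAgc
Jun, chr4:95052223-95052342 (−): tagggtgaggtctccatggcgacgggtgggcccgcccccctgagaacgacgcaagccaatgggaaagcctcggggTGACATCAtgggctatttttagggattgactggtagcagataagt

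The capitals TGACG are the core of the cAMP response element, the sequence that CREB recognizes, and in Atf3 it lies on the other strand, where it reads CGTCA. Both strands of the 250 bases before each start were searched. TGACG was found in 4 of the 7 genes (Fos, Fosb, Junb and Atf3), against 17.8% of all 32851 promoters. TGACATCA, the variant known from the Jun promoter, was found in Jun alone among the 7, against 2.93% of all promoters. The full palindrome TGACGTCA, which contains TGACG, and the AP-1 element TGANTCA were in none of the 7, against 1.55% and 6.75% of all promoters. Fosl2 and Jund held none of these letters in that window. The windows follow the RefSeq starts, which can differ from the gene spans of the annotation given next. The Jund window ends at chr8:70697738, short of that annotation's start at 70698949. The Fosl2 window, which ends at chr5:32136471, and the Atf3 window lie inside the spans given there. Other start sites of these genes were not searched. A match describes the letters and not a site in use.

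The genes also differ in their build. In the GRCm38 annotation (GENCODE M21), Jun (chr4:95049034-95052222, minus strand) and Jund (chr8:70698949-70700616, plus strand) consist of 1 exon each and span 3189 and 1668 bases. Fos (chr12:85473890-85477273, plus strand) spans 3384 bases, Junb (chr8:84974484-84978718, minus strand) 4235 and Fosb (chr7:19302696-19310051, minus strand) 7356. Fosl2 (chr5:32135801-32157842, plus strand) and Atf3 (chr1:191170296-191218039, minus strand) are longer, at 22042 and 47744 bases. Jun and Jund thus hold no intron, so every read from them is exonic.

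The 8 libraries hold 53390 barcodes, of which 45560 nuclei passed the filters, between 5049 and 7157 per library. Clustering was done without the 7 genes and gave 41 clusters. Of these, 31 with 33398 nuclei took a name from marker genes and are called "like" that cell type, and 13 classes had at least 20 nuclei in every library. The defining markers were present: mean levels were 304 CPM for Slc17a7 in excitatory neuron-like nuclei, 356 CPM for Gad2 in inhibitory neuron-like nuclei, 845 CPM for Aqp4 in astrocyte-like nuclei and 1840 CPM for Cldn5 in endothelial-like nuclei. CPM is the UMIs (unique molecular identifiers, counted transcripts) of a gene per 1000000 UMIs of that class in that library. The libraries fall into 2 sets by depth, and each group has 1 library in each set. Set 1 (control 1, BCAS 1, TBI 1 and BCAS+TBI 2) has medians of 3275.5 to 3829.5 UMIs per barcode and mitochondrial shares of 1.204% to 2.77%, and set 2 (control 2, BCAS 2, TBI 2 and BCAS+TBI 1) has medians of 5462 to 6409 UMIs and shares of 0.511% to 1.04%. Libraries shared 5 to 20 barcodes pairwise. Since levels of the AP-1 genes differ between the sets, comparisons are given without and with the library set as a block.

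Fos, the best known partner of Jun and a common mark of recently active neurons, was highest in excitatory neuron-like nuclei. Pooled over the 8 libraries it stood at 10.6 CPM there (1063 UMIs, exact Poisson 95% interval 9.99 to 11.3, which covers counting error only). It was at 7.55 CPM in thalamic excitatory neuron-like nuclei, 5.22 in inhibitory neuron-like, 5.17 in astrocyte-like and 4.30 in striatal projection neuron-like nuclei. Dentate granule neuron-like nuclei read 0.974 CPM, below excitatory neuron-like nuclei in 8 of 8 libraries. Low Fos was not limited to them: an excitatory neuron-like cluster led by Gm2164 and Fibcd1 read 2.12 CPM, and an unnamed cluster led by Ccbe1 and Grik4 read 1.89 CPM. Fosb, whose protein and its stable splice form are studied after repeated stimulation, read 3.17 CPM in excitatory neuron-like nuclei and at most 1.68 CPM in any other class. Its level there exceeded that of inhibitory neuron-like nuclei in 8 of 8 libraries.

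Fosl2, a Fos family gene with slower and more lasting expression, had another distribution. It was at 21.8 CPM in endothelial-like and 13.2 CPM in fibroblast-like nuclei, 10.6 CPM in excitatory neuron-like and 10.2 CPM in dentate granule neuron-like nuclei. Thalamic excitatory neuron-like nuclei read 1.83 CPM and astrocyte-like nuclei 1.92 CPM, both below excitatory neuron-like nuclei in 8 of 8 libraries. Among the 11 excitatory clusters, Fosl2 reached 31.2 CPM in a cluster led by Tshz2. Fosb was highest, at 6.79 CPM, in a small cluster led by Nr4a2. Fos ran from 2.12 to 17.6 CPM over the excitatory clusters. Clusters came from these same nuclei, so the spread among them is a description.

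The Jun family was spread over more classes. Jun, the most studied stress-responsive subunit, was highest in endothelial-like nuclei (114 CPM), then in dentate granule neuron-like (56.4 CPM), oligodendrocyte precursor-like (39.3 CPM), fibroblast-like (33.0 CPM) and microglia-like nuclei (32.9 CPM). Astrocyte-like (203 UMIs, exact Poisson 95% interval 26.0 to 34.4 CPM) and oligodendrocyte-like nuclei (29.9 CPM) followed. By the median over libraries, fibroblast-like (36.0 CPM) and microglia-like nuclei (34.2 CPM) stood above oligodendrocyte precursor-like nuclei (32.3 CPM). Excitatory neuron-like nuclei held 9.40 CPM, below microglia-like nuclei in 7 of 8 libraries and below the other 6 of these classes in 8 of 8. Junb, an activity-regulated subunit and a weaker activator than Jun, was at 44.9 CPM in endothelial-like, 43.5 CPM in microglia-like and 38.9 CPM in excitatory neuron-like nuclei. By the median over libraries the order was microglia-like (53.1 CPM), excitatory neuron-like (42.8 CPM) and endothelial-like (36.9 CPM), since BCAS+TBI 2 alone read 195 CPM in endothelial-like nuclei. Junb stood at 7.39 CPM in thalamic excitatory neuron-like and 5.93 CPM in oligodendrocyte-like nuclei, each below excitatory neuron-like nuclei in 8 of 8 libraries. Jund was at 101 CPM in endothelial-like, 63.5 CPM in oligodendrocyte-like, 62.6 CPM in mural-like, 31.5 CPM in astrocyte-like and 19.2 CPM in excitatory neuron-like nuclei.

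In dentate granule neuron-like nuclei Fos and Jun went separate ways: Fos was at its lowest level of the 5 neuron classes, while Jun was at its highest. Ordered by the median over libraries, however, the ranges of all 12 pairs of neighbouring classes overlapped for each of the 7 genes, so neighbours in the order are not told apart. Jun in endothelial-like nuclei, for example, ran from 31.6 to 195 CPM over the libraries (median 109), and Jun in dentate granule neuron-like nuclei from 25.7 to 126.5 CPM (median 42.4). The endothelial-like cluster also carried haemoglobin transcripts: the summed level of 4 red blood cell genes in it was 36460 CPM in BCAS 1, 56220 CPM in TBI 1 and 56400 CPM in BCAS+TBI 2, against 524 to 3149 CPM in the other 5 libraries. What part this had in the levels there was not tested. The levels of different genes are not set against each other, since counts of 3′ ends are not per length.

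**Figure D1:**
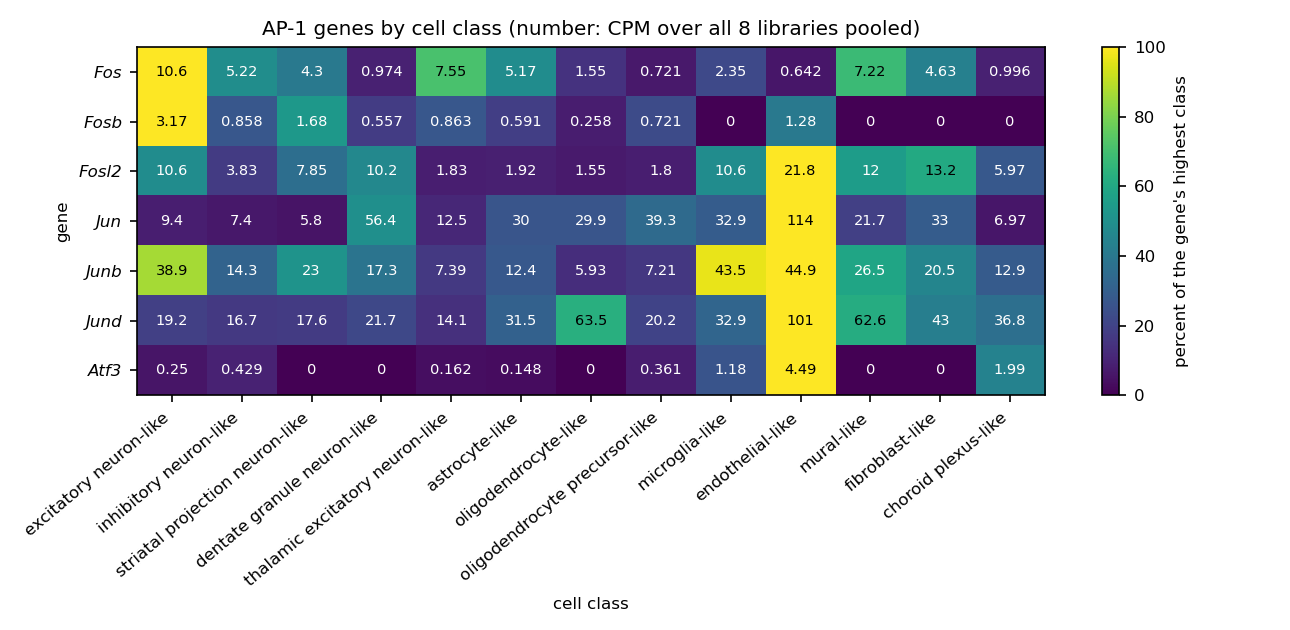
Heat map of the level of each AP-1 gene (rows) in each of 13 cell classes (columns), in CPM pooled over the 8 libraries and printed in each cell. Colour gives each gene's level as a percent of its own highest class: Fos and Fosb peak in excitatory neuron-like nuclei (10.6 and 3.17 CPM), and the other 5 genes have their highest pooled level in endothelial-like nuclei. For Atf3 that level rests on 7 UMIs, and for Junb on BCAS+TBI 2 (195 CPM), while by the median over libraries Junb was highest in microglia-like nuclei (53.1 CPM).

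Atf3 was rare in every class. Only 102 UMIs were counted over all nuclei, or 0.367 CPM (exact Poisson 95% interval 0.299 to 0.446). Excitatory neuron-like nuclei held 25 of them (0.250 CPM), inhibitory neuron-like nuclei 12 (0.429 CPM) and endothelial-like nuclei 7 (4.49 CPM, interval 1.81 to 9.26). The highest level of any cluster, 11.85 CPM, was in an unnamed cluster of 185 nuclei. It was led by Hbb-bs and Rgs5, with Cldn5 and Flt1 among its leading genes, and belongs to no class. No UMI was counted in 1260 dentate granule neuron-like nuclei, which allows up to 0.418 CPM there (3 UMIs of the class's total). At this depth Atf3 could not be tested in any class.

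Fos and Fosb transcripts sat in few nuclei. In the 13578 excitatory neuron-like nuclei, the 1063 Fos UMIs came from 800 nuclei, 630 of them with a single UMI, and the highest nucleus had 7. The 1% of nuclei with the most Fos held 34.3% of its UMIs, and for Fosb the same share was 63.7%. Jund was spread more evenly, with 15.3% of its 1920 UMIs in the top 1% of nuclei. Junb, with 3896 UMIs in 2559 nuclei, reached 11 UMIs in 1 nucleus, and 69 nuclei held 5 or more. Between 3.01% (BCAS 2) and 7.64% (BCAS+TBI 1) of excitatory neuron-like nuclei had a Fos UMI. With each nucleus thinned to 1000 UMIs, and 4 to 17 shallower nuclei per library left out, the range was 0.424% (BCAS 2) to 2.04% (BCAS+TBI 2). In dentate granule neuron-like nuclei, where medians were 3104 to 6528 UMIs against 4245 to 8940 in excitatory neuron-like nuclei, the thinned share was 0 in 7 libraries and 0.541% in BCAS+TBI 2. That class was among the lowest in Fos, and fibroblast-like nuclei, for example, read 4.63 CPM, so its share is not a measure of background. Free RNA can put a UMI in any droplet, and its part in these shares was not tested.

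Several of the genes were detected more often in nuclei that also held Fos. After thinning, 151 excitatory neuron-like nuclei held a Fos UMI. Junb was detected in 18.5% of them and in 4.33% of the nuclei without Fos, and the share was higher with Fos in 7 of 8 libraries. Fosb was found in 3.31% of Fos-positive nuclei (5 nuclei) and in 0.270% of the others, higher in 4 of 8 libraries. Fosl2 was found in 5.96% (9 nuclei) against 1.16%, higher in 5 of 8. Jund showed no such excess: 1.32% of Fos-positive nuclei (2 nuclei) and 2.29% of the others held it. The counts behind all but Junb are small, and no test was made across nuclei, which are not replicates.

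The first comparison sets the 4 libraries with TBI surgery (TBI and BCAS+TBI) against the 4 without (control and BCAS). A member-class pair entered the fit where its summed counts were high enough (edgeR's filter with a minimum count of 10), and 31 of 91 pairs did: Fos in 3 classes, Fosb in 1, Fosl2 in 3, Jun in 8, Junb in 7, Jund in 9 and Atf3 in none. No AP-1 gene passed the threshold (adjusted p of 0.05, edgeR's quasi-likelihood test with Benjamini-Hochberg adjustment over 110367 class-gene pairs) in any class, and neither did any other gene (0.0% of pairs). At an unadjusted p under 0.05, 1 of the 31 pairs stood out, Jun in astrocyte-like nuclei, where the background was 0.824% of all pairs. This share, like those of the other contrasts below, lies under the 0.05 expected if no gene differed. The fit without a block was thus conservative, and the lack of a passing pair does not show equal levels. DESeq2's Wald test also passed no pair in this comparison. With the library set as a block, 10 of all pairs passed (0.00906%), none of them an AP-1 gene, and 3 of the 31 pairs were higher at an unadjusted p under 0.05 (against 2.51% of all pairs), namely Jun and Junb in astrocyte-like and Junb in dentate granule neuron-like nuclei. Libraries are given below in the order replicate 1, replicate 2.

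In excitatory neuron-like nuclei, Fos was at 13.8 and 9.94 CPM in control, with BCAS at 13.4 and 4.05, with TBI at 13.2 and 10.3, and with BCAS+TBI at 11.8 and 14.8. BCAS 2 was the lowest library and the others overlapped between groups. The log2 fold change with TBI was 0.34 (SE 0.315), 0.40 with the block (unadjusted p 0.0557) and 0.04 without BCAS 2. Fosb read 3.28 and 3.05 CPM in control, with BCAS at 3.41 and 1.48, with TBI at 3.86 and 4.13, and with BCAS+TBI at 3.57 and 2.35. Its log2 fold change was 0.36 (SE 0.312), and the groups overlapped through BCAS+TBI 2. Fosl2 read 10.5 and 9.16 CPM in control, with BCAS at 14.0 and 7.20, with TBI at 10.3 and 12.9, and with BCAS+TBI at 11.1 and 10.7, a log2 fold change of 0.18 (SE 0.221).

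The Jun family genes in the same nuclei were ordered by library set, and so was Fos. Junb was at 63.7 and 37.6 CPM in control, with BCAS at 48.1 and 17.9, with TBI at 52.7 and 29.3, and with BCAS+TBI at 33.8 and 69.0. The 4 libraries of set 1 held the 4 highest values, and the log2 fold change with TBI was 0.18 (SE 0.339). Jun ran from 5.47 (BCAS 2) to 18.3 CPM (BCAS+TBI 2), with a log2 fold change of 0.31 (SE 0.337). Jund ran from 11.9 (BCAS 2) to 33.3 CPM (BCAS+TBI 2) with −0.04 (SE 0.398). The adjusted p of all 6 genes was 1.00 in edgeR's test. The signs of Fosl2, Jun, Junb and Jund turned under some of the alternatives, with values listed in the closing section.

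**Figure D2:**
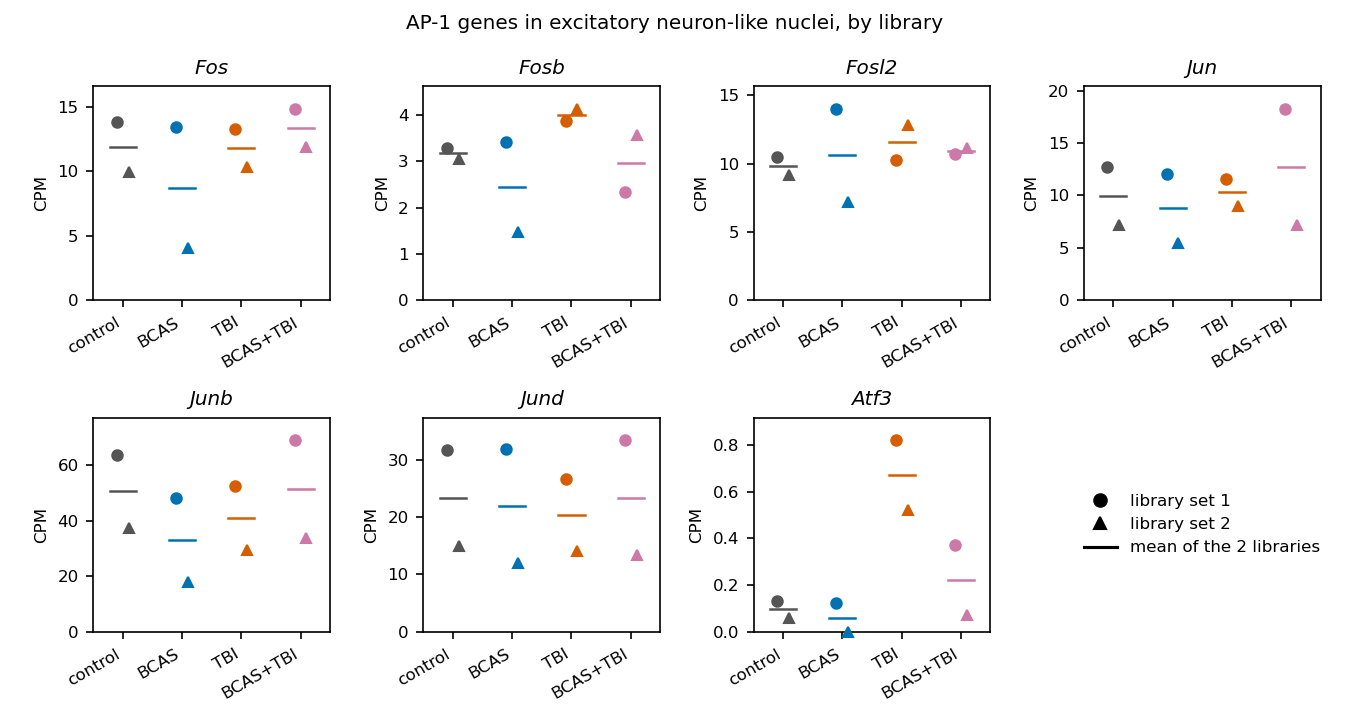
Level of each of the 7 AP-1 genes in excitatory neuron-like nuclei (1 panel per gene, CPM on a linear axis from 0) by surgery group, with circles for libraries of set 1, triangles for set 2 and a line at the mean of the 2 libraries. The circles lie above the triangles in every group for Fos, Jun, Junb, Jund and Atf3, while libraries with and without TBI surgery overlap for every gene. BCAS 2 is the lowest library for Fos at 4.05 CPM.

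Outside excitatory neurons, astrocyte-like nuclei held the lowest unadjusted p of the 31 pairs. Jun in them was at 23.2 and 19.1 CPM in control, with BCAS at 23.0 and 20.7, with TBI at 45.4 and 37.6, and with BCAS+TBI at 22.2 and 53.9. Of the 4 libraries with TBI surgery, 3 lay well above all 4 without it, and BCAS+TBI 1 lay among the latter. The log2 fold change was 0.90 (SE 0.313, unadjusted p 0.0179, adjusted p 1.00, edgeR), and with the library set as a block it was 0.82 (SE 0.236, unadjusted p 0.00192, adjusted p 0.920). With BCAS+TBI 2 left out and no block it was 0.50. The share of astrocyte-like nuclei with a Jun UMI, thinned to 1000 UMIs with 19 to 74 shallower nuclei per library left out, was 1.82% to 2.27% in the 4 libraries without TBI surgery. TBI 1 and 2 had 3.70% and 5.085%, while BCAS+TBI 1 and 2 had 2.36% and 5.505%, all 4 above the former, from 7 to 20 nuclei per library. Without thinning it was 3.28% to 4.75% and 4.60% to 8.22%, where BCAS+TBI 1 overlapped. The class consists of 2 clusters, and the one led by Apoe and Aqp4, with Gfap among its leading genes, held 51.9% to 64.3% of the class without TBI surgery and 63.5% to 70.6% with it. Within that cluster Jun was at 25.6 and 24.1 CPM in control, with BCAS at 27.8 and 25.6, with TBI at 50.2 and 54.2, and with BCAS+TBI at 26.65 and 62.2, so the same 3 libraries were high. The other cluster, led by Slc6a11 and Agt, did not share this. There Jun read 19.5 and 9.12 CPM in control, with BCAS 14.7 and 14.1, with TBI 32.0 and 0, and with BCAS+TBI 11.8 and 35.1. TBI 1 and BCAS+TBI 2 were high in it and TBI 2 was lowest, from at most 10 Jun UMIs per library.

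Junb in astrocyte-like nuclei was at 13.9 and 8.05 CPM in control, with BCAS at 9.48 and 4.30, with TBI at 24.4 and 11.3, and with BCAS+TBI at 7.02 and 21.6. Within each library set, both libraries with TBI surgery exceeded their counterparts without it. The log2 fold change was 0.95 (SE 0.509, unadjusted p 0.0936, edgeR), and 0.83 with the block (SE 0.370, unadjusted p 0.0331), and neither passed after adjustment. With BCAS+TBI 2 left out and no block it was 0.45. Fos in the same nuclei, with 35 UMIs in all, was too low to be tested. It read 4.64 and 4.03 CPM in control, with BCAS at 2.71 and 2.58, with TBI at 7.57 and 7.52, and with BCAS+TBI at 5.85 and 7.70. All 4 libraries with TBI surgery thus lay above the 4 others, which was seen after the values were known. Each library held 2 to 4 Fos UMIs without TBI surgery and 4 to 9 with it. Of all pairs tested, 0.581% had this order. Neither cluster kept it. In the Apoe and Aqp4 cluster TBI 2 (5.42 CPM) lay below control 2 (6.02 CPM). In the other, BCAS+TBI 1 read 0 and BCAS 1 7.37 CPM. Of the other cell types' genes in astrocyte-like nuclei, the summed level of 5 endothelial markers was 126.8, 67.4, 125.9 and 82.6 CPM in control and BCAS libraries and 93.3, 37.6, 104.1 and 84.7 CPM in TBI and BCAS+TBI libraries. The summed level of 5 oligodendrocyte markers separated the groups, at 343 to 419 CPM in the 4 libraries without TBI surgery and 274 to 334 CPM in the 4 with it. That of 4 red blood cell genes was 44.3 to 175 CPM without and 30.4 to 229 CPM with TBI surgery, highest in BCAS+TBI 2 and TBI 1. The part of these cells in the result was not tested.

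In endothelial-like nuclei, Junb was at 71.0 and 21.1 CPM in control, with BCAS at 35.1 and 30.8, with TBI at 58.2 and 34.4, and with BCAS+TBI at 38.6 and 195. The log2 fold change with TBI was 0.98 (SE 0.617, unadjusted p 0.140, edgeR), and 0.25 without BCAS+TBI 2, a library in which red blood cell transcripts were also high. Junb in inhibitory neuron-like nuclei, at 21.3 and 10.9 CPM in control, with BCAS at 21.8 and 6.22, with TBI at 28.7 and 12.02, and with BCAS+TBI at 11.6 and 21.96, was a further pair in which both sets gave higher values with TBI surgery in both comparisons. With glial classes summed, the log2 fold change of Jun was 0.61 (SE 0.327, unadjusted p 0.0951) and 0.54 with the block (SE 0.180, unadjusted p 0.00824, adjusted p 1.00). With vascular classes summed, Jun gave −0.03 and Junb 0.79.

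**Figure D3:**
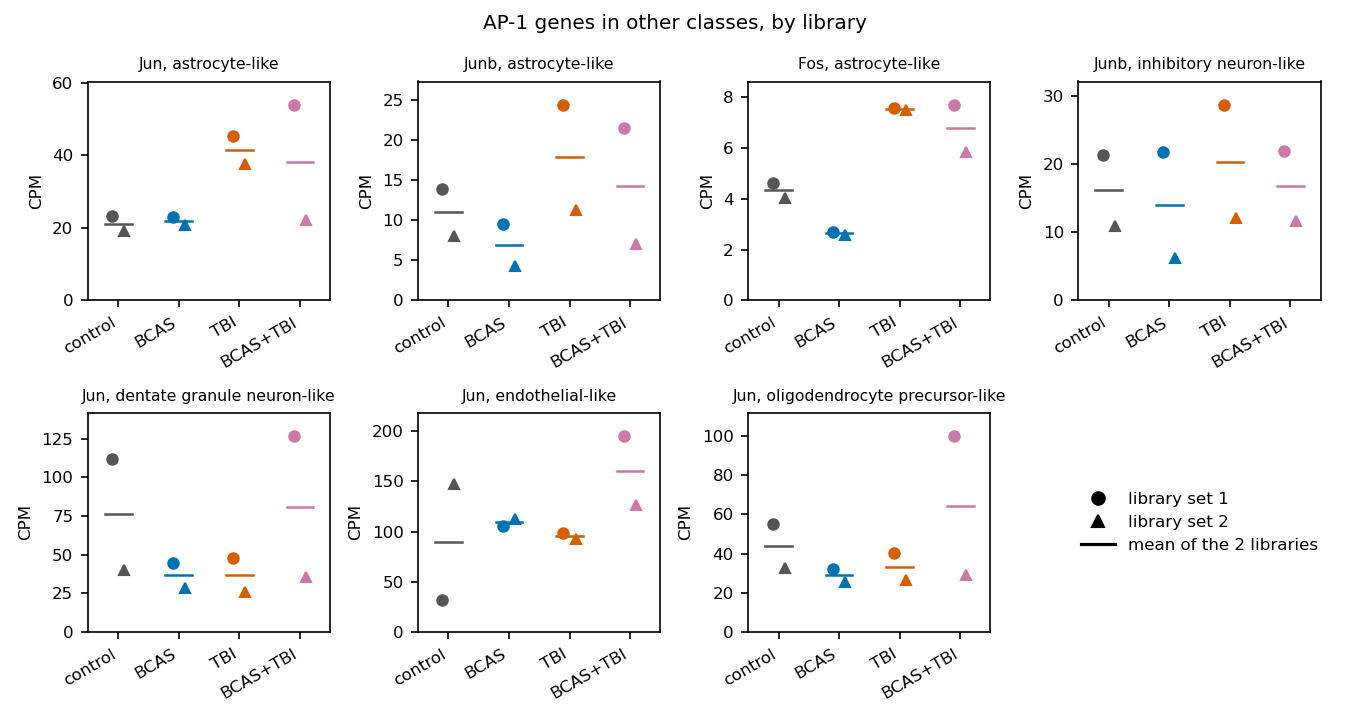
CPM by surgery group in other classes: Jun, Junb and Fos in astrocyte-like, Junb in inhibitory neuron-like, and Jun in dentate granule neuron-like, endothelial-like and oligodendrocyte precursor-like nuclei, with circles for set 1, triangles for set 2 and a line at the mean of the 2 libraries. Fos and Jun in astrocyte-like nuclei reach 7.70 and 53.9 CPM with TBI surgery, and Jun in dentate granule neuron-like nuclei reaches 111.7 CPM in control 1 and 126.5 CPM in BCAS+TBI 2.

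Over the 31 pairs tested, 26 had a log2 fold change above 0 with TBI (83.9%, against 50.9% of all 110367 pairs), with a median of 0.28 against 0.00 over all pairs. With the library set as a block it was 23 of 31 (74.2%, against 50.8%) with a median of 0.25. These pairs are not independent, since they share libraries and genes, and the count describes a direction and not a passed test. None of the 31 had its 4 libraries with TBI surgery all above the 4 without (0.581% of all pairs) or all below (0.786%). In 4 pairs all 4 comparisons within a library set were higher with TBI surgery (12.9%, against 6.15% of all pairs): Jun and Junb in astrocyte-like, Junb in inhibitory neuron-like and Jund in oligodendrocyte precursor-like nuclei. In 1 pair, Jund in striatal projection neuron-like nuclei, all 4 were lower (against 6.09%).

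**Figure D4:**
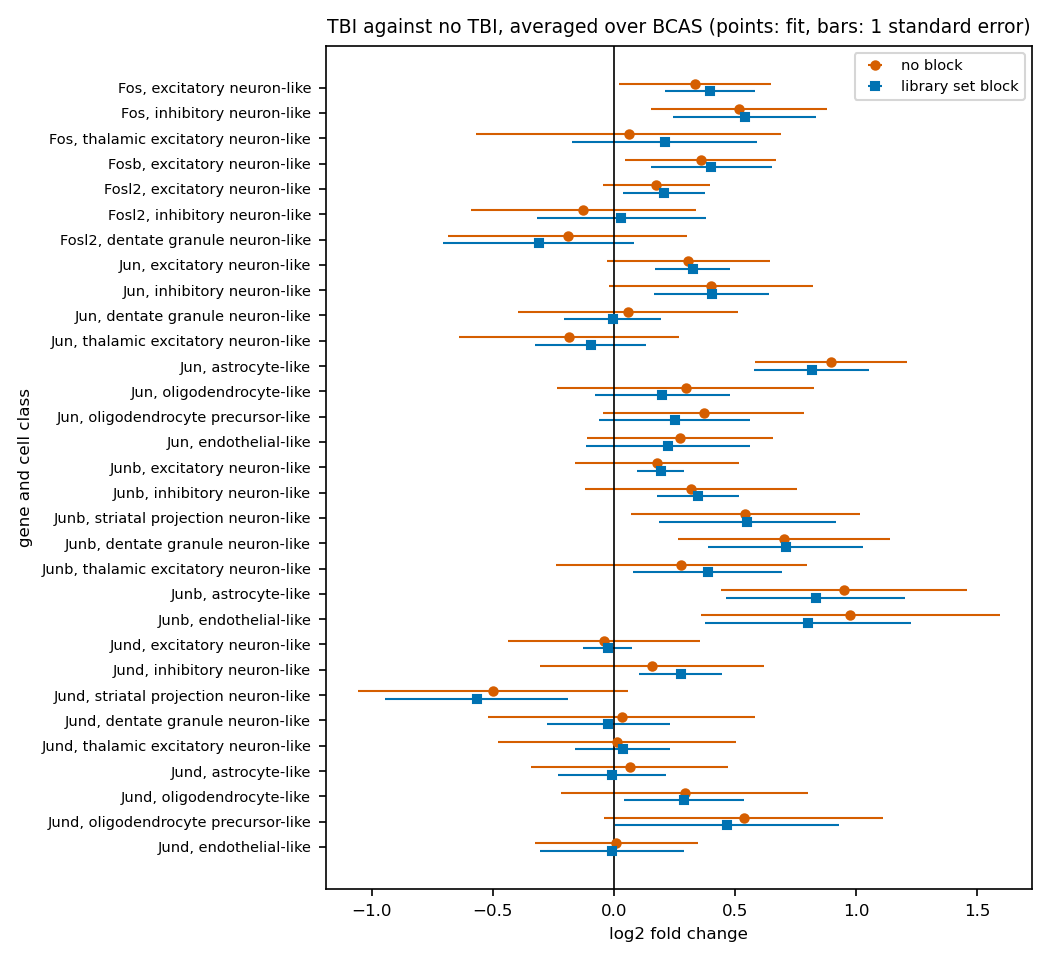
Log2 fold change with TBI surgery averaged over BCAS for the 31 member-class pairs tested, without a block and with the library set as a block, with bars of 1 SE. Of the 31 pairs 26 lie above 0 without the block and 23 with it, Jun in astrocyte-like nuclei at 0.90 and 0.82, and none passed after adjustment.

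The second comparison sets BCAS surgery (BCAS and BCAS+TBI) against its absence (control and TBI). Again no pair passed (0.0% in edgeR's test, 0 of 31 for the AP-1 genes), and at an unadjusted p under 0.05 the count was 0 of 31, against 0.728% of all pairs. With the block 5 of all pairs passed (0.00453%), none of them an AP-1 gene, and 3 of the 31 were lower at an unadjusted p under 0.05 (against 1.7%), namely Fos and Jun in inhibitory neuron-like and Junb in excitatory neuron-like nuclei. The 31 log2 fold changes lay on both sides of 0, with 18 above (58.1%, against 50.1%) and a median of 0.02. The smallest p-values belonged to inhibitory neuron-like nuclei. Fos there was at 7.40 and 5.57 CPM in control, with BCAS at 4.01 and 2.07, with TBI at 10.1 and 5.01, and with BCAS+TBI at 6.18 and 3.84. In set 1, the BCAS libraries were lower by both comparisons, and in set 2 BCAS+TBI 1 exceeded TBI 2. Its log2 fold change was −0.81 (SE 0.364, unadjusted p 0.0578, edgeR), and −0.74 with the block (unadjusted p 0.0204).

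Jun in inhibitory neuron-like nuclei was at 10.6 and 5.78 CPM in control, with BCAS at 8.90 and 3.53, with TBI at 18.5 and 6.34, and with BCAS+TBI at 6.18 and 7.69. It was lower with BCAS in all 4 comparisons within a library set, as was Junb in astrocyte-like nuclei; these are 2 of the 31 pairs, against 5.64% of all pairs, and 1, Jund in dentate granule neuron-like nuclei, was higher in all 4 (against 5.24%). Its log2 fold change was −0.61 (SE 0.422, unadjusted p 0.186, edgeR). Fosb in excitatory neuron-like nuclei, whose levels stand above, gave −0.44 (SE 0.312, unadjusted p 0.202). No AP-1 gene had its 4 BCAS libraries all above (0.533%) or all below (0.645%) the 4 others.

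The comparison that the study's title names is BCAS+TBI against TBI, with 2 libraries on each side. No pair passed in edgeR's test (0.0%), and none of the 31 had an unadjusted p under 0.05, against 0.811% of all pairs; DESeq2 passed 1 pair of all, not an AP-1 gene. With the block 3 pairs of all passed (0.00272%), again no AP-1 gene, and 2 of the 31 were higher at an unadjusted p under 0.05 (against 2.33%), Jun in dentate granule neuron-like and in oligodendrocyte precursor-like nuclei. Of the 31 log2 fold changes 17 were above 0 (54.8%, against 50.9%), with a median of 0.08. In both library sets, BCAS+TBI was higher than TBI for 9 pairs (29.0%, against 23.8%) and lower for 7 (22.6%, against 24.1%). The lower pairs included Fosl2, Jun, Junb and Jund in inhibitory neuron-like nuclei, and the higher ones Jun, Junb and Jund in dentate granule neuron-like nuclei.

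Jun in dentate granule neuron-like nuclei had the smallest p of the 31 pairs. It was at 111.7 and 40.3 CPM in control, with BCAS at 44.5 and 28.6, with TBI at 47.5 and 25.7, and with BCAS+TBI at 35.2 and 126.5. Control 1 and BCAS+TBI 2 stood far above the other 6 libraries, so the high values came from 1 library in each of 2 groups. The log2 fold change of BCAS+TBI over TBI was 1.13 (SE 0.639, unadjusted p 0.108, adjusted p 1.00, edgeR), 1.00 with the block (SE 0.281, unadjusted p 0.00179), and 0.01 without BCAS+TBI 2. In BCAS+TBI 2, 1 nucleus with 113843 UMIs held 31 Jun UMIs, and without it the level was 109.5 CPM. With nuclei left out that held more than 3 times the UMIs of the median nucleus of that class in their library, the log2 fold change was 0.69. The astrocyte markers summed to 249 and 285 CPM in these nuclei in TBI 1 and 2 and to 416 to 466 CPM in the other 6 libraries. Ribosomal protein genes held 0.9746% of these nuclei's UMIs in control 1 and 1.193% in BCAS+TBI 2. In the other 6 libraries they held 0.2305% (BCAS 2) to 0.6988% (TBI 1). The part of either in the result was not tested.

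The interaction, which asks whether the TBI difference is larger with BCAS than without, gave its smallest p in the same class. For Jun in dentate granule neuron-like nuclei it was 2.16 on the log2 scale (SE 0.910, unadjusted p 0.0407, adjusted p 1.00, edgeR), and 1.87 with the block (SE 0.402, unadjusted p 1.19e-04, adjusted p 0.285). It passed in a single alternative, added after seeing the data, the block without TBI 2 (2.13, adjusted p 0.0424), and was 1.31 without high-UMI nuclei, 1.36 without control 1 and 1.02 without BCAS+TBI 2. No pair passed in the fit without a block (0.0%), and 1 AP-1 pair of 31 had an unadjusted p under 0.05, against 0.976% of all pairs. With the block 1 pair of all passed (0.000906%), not an AP-1 gene, and 4 of the 31 were higher at an unadjusted p under 0.05 (against 2.58%). Among these was Junb in excitatory neuron-like nuclei, whose levels stand above: its interaction with the block was 1.01 (SE 0.196, unadjusted p 2.53e-04, adjusted p 0.342, edgeR), against 0.96 without it (SE 0.680, unadjusted p 0.200). In both sets TBI lay below control and BCAS+TBI above BCAS. Pairs singled out by their p with the block were chosen after their values were seen. The median over the 31 pairs was 0.28 against 0.01 over all pairs, with 18 above 0 (58.1%, against 51.1%).

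Other pairs gave large but imprecise values. Jun in oligodendrocyte precursor-like nuclei was at 55.3 and 32.4 CPM in control, with BCAS at 32.3 and 25.7, with TBI at 40.3 and 26.2, and with BCAS+TBI at 28.9 and 99.9. BCAS+TBI 2 was again the highest library, the log2 fold change of BCAS+TBI over TBI was 0.85 (SE 0.567, unadjusted p 0.156, edgeR), and without that library it was −0.19. The interaction for the same pair was 1.41 (SE 0.831, unadjusted p 0.113, edgeR), and 0.37 without that library. Junb in endothelial-like nuclei gave 1.17 (SE 0.821, unadjusted p 0.179) and −0.27 without that library. The interaction for Junb in striatal projection neuron-like nuclei, at 50.7 and 13.5 CPM in control, with BCAS at 17.2 and 7.45, with TBI at 29.9 and 17.3, and with BCAS+TBI at 39.6 and 19.0, was 1.89 (SE 0.946, unadjusted p 0.0729, edgeR) and 0.68 without control 1.

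Differences between the library sets passed the test in many pairs. For set 1 against set 2, 21 of the 31 pairs passed (67.7%, adjusted p of 0.05 in edgeR's test with group in the model), all of them higher in set 1, where 34.5% of all pairs passed and 19.0% passed as higher. In 17 pairs the 4 libraries of set 1 all lay above those of set 2 (54.8%, against 21.2% of all pairs). The log2 difference was 1.00 for Jund in excitatory neuron-like nuclei (SE 0.101, adjusted p 1.6e-05) and 0.82 for Junb (SE 0.098, adjusted p 5.8e-05). For Jun it was 1.26 in dentate granule neuron-like and 1.46 in oligodendrocyte-like nuclei. The Fos family moved less in excitatory neuron-like nuclei, with 0.48 for Fos (adjusted p 0.0677), −0.07 for Fosb and −0.00 for Fosl2. Fos there was still among the 17 pairs with set 1 all above set 2. In endothelial-like nuclei Jun (−0.18) and Jund (0.25) did not pass.

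Gene structure went with that difference. In excitatory neuron-like nuclei the median log2 difference between the sets was 0.75 over 298 protein-coding genes of 1 exon, as Jun and Jund are, and 0.81 over 1046 genes with several exons spanning under 5000 bases, as Fos and Junb are. Over 12477 longer genes it was −0.07, and Fosb and Fosl2 lie in that class. In dentate granule neuron-like nuclei the 3 medians were 1.09, 1.19 and −0.07. Fosl2, although a longer gene, had all 4 libraries of set 1 above those of set 2 in these nuclei. Set 1 also had the higher mitochondrial and ribosomal shares of UMIs and the lower depth. What makes the sets differ was not tested, and the labels do not name a batch.

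**Figure D5:**
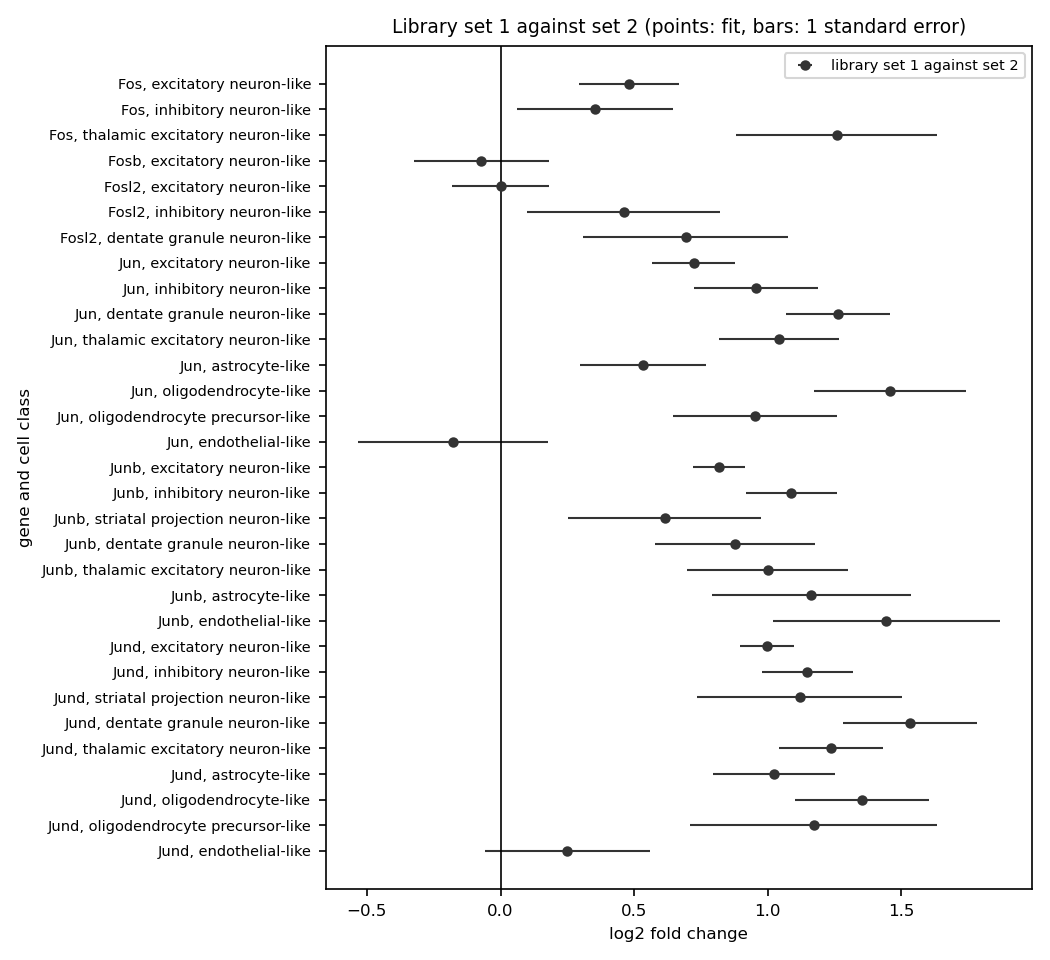
Log2 fold change of library set 1 against set 2 for the 31 member-class pairs tested, with bars of 1 SE and a line at 0. Of the 31 pairs 28 lie above 0, higher in set 1, and 21 passed as higher in set 1. Fosb and Fosl2 in excitatory neuron-like nuclei lie near 0.

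Across the 104 class and library sums, with each class mean taken out, the genes whose log2(CPM + 1) most resembled a member's are named as a description, out of 7941 genes compared. For Jund they were Gnl3, Oaz1 and Bsg (Pearson r 0.75, 0.74 and 0.72), for Junb Fuca1, Smim19 and Vdac1 (0.66, 0.63 and 0.63), and for Fos Npr3, Ubxn11 and Bbs5 (0.44, 0.43 and 0.43). These sums share libraries and depth, including the 2 library sets.

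The rest of the pathway was read from lists of genes, and no gene of any list passed in any class or comparison, without or with the block. Of the 9 genes of the other immediate early families, with TBI surgery 28 of 31 class-gene pairs were above 0 (50.9% of all pairs), with a median log2 fold change of 0.36. Egr1, an activity-regulated zinc finger factor, had the smallest p of that list. In inhibitory neuron-like nuclei it was at 11.1 and 12.6 CPM in control, with BCAS at 6.23 and 8.09, with TBI at 13.9 and 19.0, and with BCAS+TBI at 20.1 and 10.98, where BCAS+TBI 2 lay among the libraries without TBI surgery. Its log2 fold change was 0.80 (SE 0.287, unadjusted p 0.0236, edgeR) and its adjusted p with the block was 0.421. Of the feedback and co-induced early genes, among them Dusp1 and Dusp5, phosphatases of MAP kinases, 27 of 43 pairs were above 0 with TBI (median 0.17) and 16 of 43 with BCAS (median −0.09).

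The remaining lists stayed near 0 with TBI. Of the bZIP partners outside the 7 genes (12 of 14 listed genes tested), 26 of 66 pairs were above 0 (median −0.03). The counts were 67 of 147 (median −0.01) for 15 upstream kinases and scaffolds, 42 of 77 (median 0.02) for 9 upstream transcription factors and 31 of 51 (median 0.06) for AP-1 targets (9 of 16 listed genes tested). Their smallest p-values belonged to Atf7 in oligodendrocyte-like nuclei (log2 fold change 0.94, unadjusted p 0.0182), Mapk8, the gene of a Jun N-terminal kinase, in fibroblast-like nuclei (−0.89), Srf in excitatory neuron-like nuclei (−0.31, unadjusted p 0.0851) and Gap43, a growth cone gene, in oligodendrocyte-like nuclei (0.90, unadjusted p 0.0325).

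Atf3 was followed in single nuclei because its sums were too low to test, and what follows was chosen after the values were seen. In excitatory neuron-like nuclei it was at 0.131 and 0.0599 CPM in control, with BCAS at 0.122 and 0, with TBI at 0.819 and 0.522, and with BCAS+TBI at 0.0700 and 0.370. Both TBI libraries lay above all others there, from 25 UMIs over all libraries. How many of all class-gene pairs show such an order was not counted. Other classes did not share this order: in inhibitory neuron-like nuclei TBI 1 read 2.95 CPM, control 2 0.642 CPM and TBI 2 none. Over all nuclei TBI 2 (0.331 CPM) was level with control 2 (0.323 CPM) and below BCAS+TBI 2 (0.723 CPM), and TBI 1 was highest (0.914 CPM). The 7 UMIs of endothelial-like nuclei all came from control 1, control 2 and BCAS 2, with none in the 4 libraries with TBI surgery. The unnamed cluster led by Hbb-bs and Rgs5, where Atf3 was highest, is not part of that class and was not split by library. In all nuclei 10 held at least 2 Atf3 UMIs, and 6 of these were in neuron classes: 3 in TBI 1 and 3 in TBI 2, and none in the control, BCAS or BCAS+TBI libraries. One inhibitory neuron-like nucleus of TBI 1, in a cluster marked by Pvalb, held 7 Atf3 UMIs. None of the 10 nuclei held a Fos or Fosb UMI, while several held UMIs of Jun, Junb or Jund. Fos and Fosb were rare in any case: of 13578 excitatory neuron-like nuclei, 800 held a Fos UMI and 251 a Fosb UMI. Their absence from 10 nuclei therefore says little. With so few nuclei the difference between TBI and BCAS+TBI was not tested.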

How the data were processed

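The deposited files hold raw UMI counts per gene and barcode for 8 libraries, which the authors made in Cell Ranger (version 7.0.0, per the file headers), with no normalization. The submitters' processing notes name GRCm38/mm10 and Seurat, and the annotation release is not given in the sources used here. A barcode needed 500 or more UMIs, 300 or more detected genes and a mitochondrial share of no more than 5% (4922 failed). Scrublet's automatic threshold marked at most 0.0506% of barcodes per library, so the 6% with the highest score were removed (2908). Clusters came from 3000 variable genes without the AP-1 and other early genes, 30 principal components, 15 neighbours and Leiden at resolution 1 (scanpy 1.11.5, igraph 0.11.9, Python 3.11.15), with no integration. A cluster with fewer than 3 detected markers of its class, or with a median doublet score above 0.1, stayed unnamed. Excitatory and inhibitory neuron names needed the transmitter markers of 1 kind at 5 times those of the other. Other names needed a marker score at least 2 log2 units above that of the next class. Shallow clusters also needed a marker of their class among the leading genes. In all, 10 clusters (12162 nuclei) stayed unnamed.

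Counts were summed per library and class. The main test was edgeR 4.0.16 (R 4.3.3): TMM factors, filterByExpr with a minimum count of 10, a 4-group design and the quasi-likelihood test, 2-sided, with Benjamini-Hochberg adjustment over all 110367 class-gene pairs of each of 4 contrasts. The SE is the log2 fold change divided by the square root of F. The fit was tested on simulated counts. DESeq2 1.42.0, other filters, scalings and gates, and each library left out in turn were alternatives. Libraries with the same replicate number did not deviate together throughout (correlations of deviations from −0.81 to 0.759), so the number is not used as a pairing. The library sets were split at the largest gap in log total UMIs, which ran from 28118725 to 33363564 in set 1 and from 42651388 to 56135192 in set 2.

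The 7 genes, the gene lists, markers and tests were chosen with earlier results of these data known. Given in full were the 3 member-class pairs with the smallest p in each contrast and the 7 genes in excitatory neuron-like nuclei for TBI. Of the pathway lists, the gene with the smallest p was named. Genes resembling a member had a mean of at least 20 CPM and were the 3 with the highest correlation. Intervals and floors cover counting error only.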

Additional observations from a re-analysis of the deposited data

Results flagged for a closer look

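The 12162 nuclei of the 10 unnamed clusters entered none of the comparisons, and in them 4 AP-1 genes stood higher in both libraries of a surgery group than in both control libraries. Fos had a mean of 7.67 CPM in TBI (7.90 and 7.44), against 6.53 and 4.60 CPM in control. Fosl2 had a mean of 6.28 CPM in TBI (6.89 and 5.67), against 5.61 and 4.74 CPM in control. For Fosb the means were 1.63 CPM in TBI (1.32 and 1.95) and 1.48 CPM in BCAS+TBI (1.48 and 1.47), against 1.02 and 0.837 CPM in control, and BCAS 1 was at 1.87 CPM. Atf3 had a mean of 0.940 CPM in BCAS+TBI (0.702 and 1.18), against 0.306 and 0.488 CPM in control. These differences were not tested, and 2 libraries against 2 are too few for an exact permutation test to pass. How many of all genes show such an order in these nuclei was not counted. The count of 4 is therefore a description and not a result about the AP-1 genes.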

How the results depend on the processing

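No class-gene pair passed in any of the 4 contrasts under edgeR without a block, with RLE scaling, a minimum count of 30, adjustment within classes, at least 1000 UMIs per nucleus, doublets kept, Leiden at resolution 2, gating by each nucleus's own markers, thinned totals, high-UMI nuclei left out, glial and vascular classes summed, or any library left out (0 to 0). The counts that did move are given in the order TBI, BCAS, BCAS+TBI against TBI, and interaction. They were 32, 50, 15 and 24 without the filter on low counts, and 10, 5, 3 and 1 with the library set block. DESeq2 gave 1 for BCAS+TBI against TBI and 0 for the others. Chosen after seeing the data, DESeq2 with the library set block gave 2, 1, 2 and 0. Summed classes with that block gave 1 for BCAS+TBI against TBI and 1 for the interaction. Leaving out each library with that block gave 9 to 44, 8 to 45, 5 to 46 and 6 to 72. The cause was not tested. With the replicate number as a block 0 pairs passed in all 4 contrasts; same-numbered libraries deviated together among control, BCAS and TBI (correlations up to 0.759) and oppositely with BCAS+TBI (down to −0.81), and crossing the BCAS+TBI numbers gives the library sets.

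Of the 18 named pairs' values under alternatives, 512 kept their direction and side of the threshold, 17 changed sign and 1 passed. In excitatory neuron-like nuclei with TBI, Fosl2 was −0.17 gated by each nucleus's own markers and Jund was 0.05 with the replicate block. With the library set block and each library left out in turn, Fosl2 ran from −0.05 (without BCAS 2) to 0.44, and Jund from −0.11 (without TBI 2) to 0.05 (without TBI 1). Leaving out 1 library without a block gave −0.03 to 0.56 for Jun (lowest without BCAS+TBI 2), −0.06 to 0.53 for Junb (without BCAS 2 or BCAS+TBI 2) and −0.38 to 0.31 for Jund. For BCAS+TBI against TBI it gave −0.19 to 1.59 for Jun in oligodendrocyte precursor-like and −0.27 to 2.13 for Junb in endothelial-like nuclei, lowest without BCAS+TBI 2. The cause was not tested. Depth limits Atf3 in all classes and Fosb outside excitatory neuron-like nuclei, which were not tested.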
